A study of Mus musculus with 6 samples.

Results

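The 6 regulator of G protein signalling (RGS) genes Rgs1, Rgs2, Rgs3, Rgs4, Rgs5 and Rgs16 were followed across the cells of dissected mouse skin collecting lymphatic vessels. They were taken by symbol, 6 of the 31017 gene symbols in the deposited matrices, and all 6 had UMIs (unique molecular identifiers, each standing for 1 captured mRNA molecule). The members were chosen by their levels over cell types in these same libraries, so those levels are given as a description and are not tested. The vessels were from C57BL/6 mice and ran between the inguinal and axillary lymph nodes. Evans Blue dye had been injected to show them, and they were dissected free and digested with collagenase, elastase and dispase. The 6 libraries were young (6 weeks, 1 labelled male and 1 labelled female), middle-aged (12 months, 1 of each) and aged (18 months, 1 of each), with no other treatment or allele in any group. The number of mice in each library is not stated, so p-values measure the spread between these 6 libraries only, and the aged mice came from another supplier, so supplier and age cannot be told apart.

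RGS proteins speed up the hydrolysis of GTP by G protein alpha subunits and so shorten the signal of G protein-coupled receptors. In vessel walls these receptors set muscle tone and endothelial behaviour. Rgs5 is widely used as a pericyte marker, Rgs4 is known from contractile mural cells and neurons, Rgs2 acts mainly on Gq signalling and is known for its part in blood pressure control, and Rgs1 is best known from leukocytes, where it dampens chemokine receptor signals. Rgs16 acts on Gi and Gq signalling and is an inducible gene in several cell types, and Rgs3 is a larger family member with several isoforms.

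All members but Rgs3 lie on mouse chromosome 1 in the GRCm38 build. Rgs5 (chr1:169655501-169695813, plus strand) and Rgs4 (chr1:169741477-169747642, minus strand) are neighbours with 45663 bp between them. Rgs2 (chr1:143999338-144004161) and Rgs1 (chr1:144242296-144249242) are both on the minus strand with 238134 bp between them, Rgs16 is at chr1:153740349-153745468 on the plus strand, and Rgs3 is at chr4:62559847-62704001 on the plus strand. The 250 bases before the RefSeq start of 4 members, on GRCm38.p6, are shown 5′ to 3′ on each gene's own strand. They are chr1:169655251-169655500 for Rgs5, chr1:169747643-169747892 (minus strand) for Rgs4, chr1:153740103-153740352 for Rgs16 and chr1:144004150-144004399 (minus strand) for Rgs2. Capitals mark CCAAT on either strand (ATTGG where it is on the other strand) and TATAAA.
Rgs5: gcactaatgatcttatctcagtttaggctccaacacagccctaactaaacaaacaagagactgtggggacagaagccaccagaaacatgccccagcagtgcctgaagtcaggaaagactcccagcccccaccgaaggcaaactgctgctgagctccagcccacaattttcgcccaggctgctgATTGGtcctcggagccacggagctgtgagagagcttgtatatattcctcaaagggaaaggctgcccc
Rgs4: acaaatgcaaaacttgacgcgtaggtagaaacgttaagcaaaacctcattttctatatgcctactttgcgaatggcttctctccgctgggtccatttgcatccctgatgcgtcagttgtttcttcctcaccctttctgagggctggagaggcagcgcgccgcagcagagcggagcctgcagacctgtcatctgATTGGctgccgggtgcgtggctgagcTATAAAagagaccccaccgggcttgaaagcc
Rgs16: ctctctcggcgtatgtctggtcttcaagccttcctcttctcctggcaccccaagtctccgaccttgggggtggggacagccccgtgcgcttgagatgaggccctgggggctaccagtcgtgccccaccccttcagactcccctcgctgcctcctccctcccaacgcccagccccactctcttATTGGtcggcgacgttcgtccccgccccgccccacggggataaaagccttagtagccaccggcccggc
Rgs2: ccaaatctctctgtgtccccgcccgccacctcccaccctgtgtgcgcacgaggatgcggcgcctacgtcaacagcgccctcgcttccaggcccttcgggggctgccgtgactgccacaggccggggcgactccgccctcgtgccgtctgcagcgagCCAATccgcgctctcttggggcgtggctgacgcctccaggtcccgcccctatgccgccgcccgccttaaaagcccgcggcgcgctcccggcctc
The letters CCAAT were in all 4 windows, with their first base at -67 on the other strand in Rgs5, -57 on the other strand in Rgs4, -68 on the other strand in Rgs16 and -94 in Rgs2, counted from the RefSeq start. That start lies inside the GENCODE gene given above for Rgs2 and Rgs16, whose windows share 12 and 4 bases with it. TATAAA was in the Rgs4 window, at -31, and in both annotated windows of Rgs3. The motifs were chosen after the sequences had been read, and they are common, since 33.8% of the 32851 promoter windows in the table hold CCAAT and 12.4% hold TATAAA. The letters TGACTCA and TGACGTCA were searched on both strands and were in none of the members' windows, and they are in 4.46% and 1.55% of all windows. Rgs16 and Rgs3 each overlap an antisense gene, Gm28513 with 13 UMIs and Gm11209 with 0 UMIs in all cells.

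Cells were barcodes with at least 500 genes and at most 10% mitochondrial UMIs, which left 24488 in all, 999 to 8228 in each library, with median depths of 2536 to 7508 UMIs a cell. Pairs of libraries shared 0 to 12 cell barcodes. In both libraries labelled middle-aged the sex genes contradicted the label. Levels are in CPM, the gene's UMIs for each 1000000 UMIs in a set of cells. Xist had 1402 CPM in the library labelled middle-aged male and 0.255 CPM in the library labelled middle-aged female, and 4 Y-linked genes summed to 0.106 and 265 CPM in the same order. Both libraries of that pair have the same labelled age, so a comparison of ages is not moved by an exchange within it, but no sex is read from it here. Marker lists that hold no RGS gene placed 20824 barcodes (85.0%) in a class, and the classes carried their defining markers: Myh11 at 3653 CPM in the 102 smooth muscle barcodes, Abcc9 at 1069 CPM in the 21 pericyte barcodes, Prox1 at 1520 CPM in the 200 lymphatic endothelial barcodes and Flt1 at 1510 CPM in the 946 blood endothelial barcodes. The smooth muscle class also held pericyte markers, with Notch3 at 566 CPM, and the blood endothelial class held the lymphatic marker Prox1 at 90.4 CPM. A further 146 barcodes had at least 3 pericyte and 3 endothelial markers and fewer than 3 of any other list but smooth muscle. They are called endothelium with pericyte markers, a group set after the data had been seen. Smooth muscle markers were not limited there, and Acta2 was at 239 CPM, against 6460 CPM in smooth muscle and 9.27 CPM in blood endothelium. CPM here compares 1 gene between classes and libraries, not 1 gene with another, and intervals cover counting error only.

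**Figure D1:**
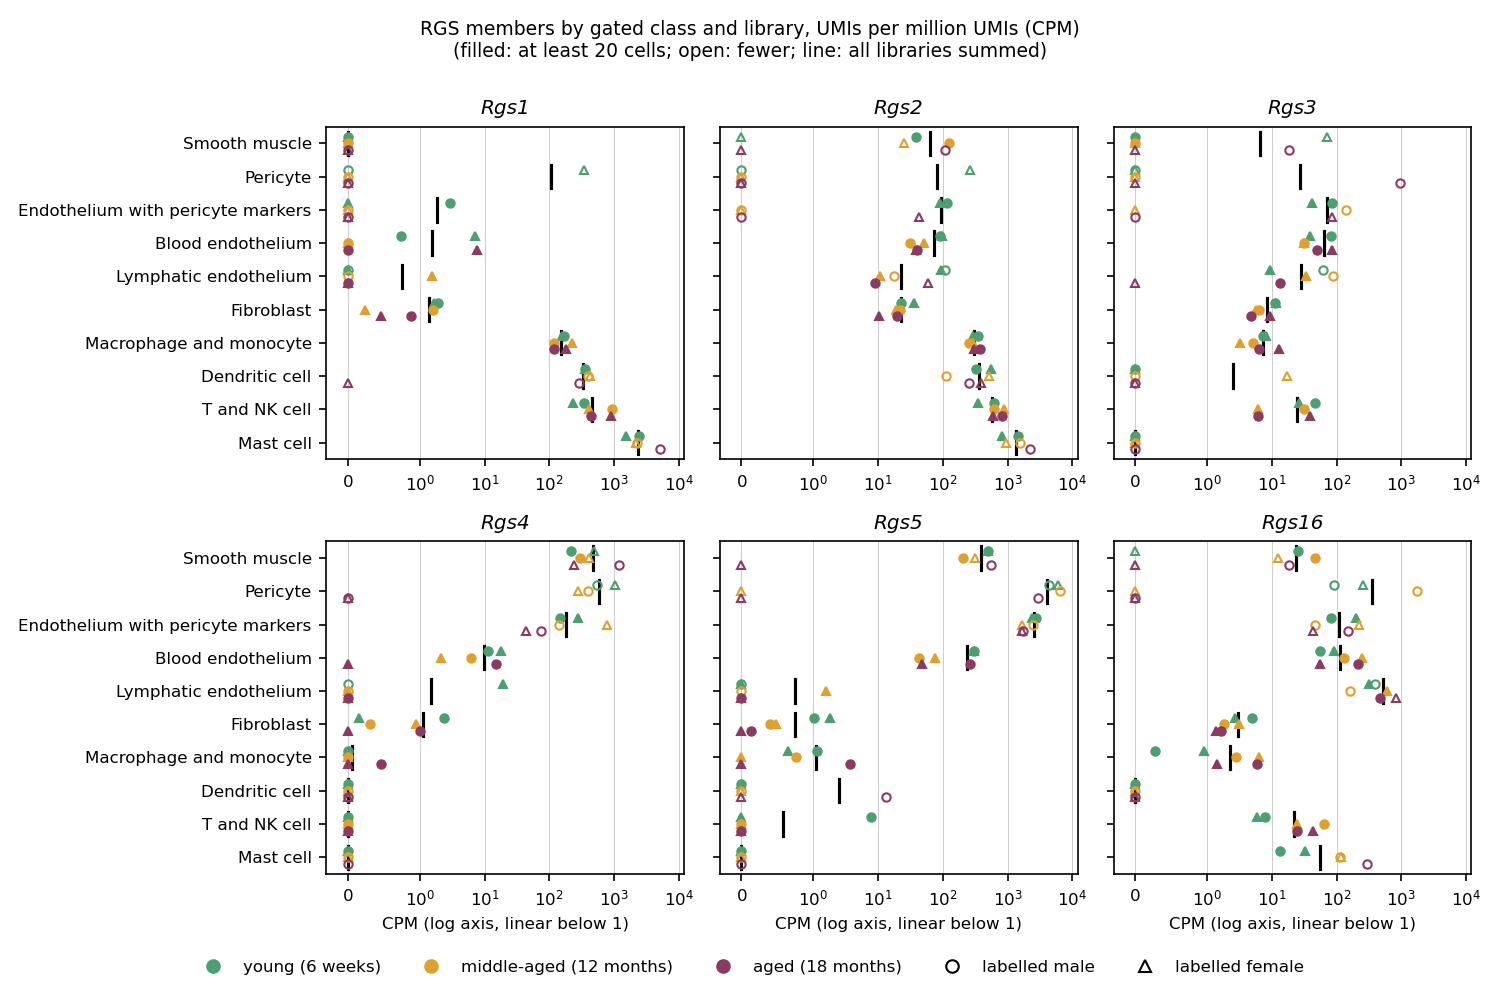
Level of each RGS gene (x axis, CPM on a log scale that is linear below 1) in 10 cell classes (y axis), with 1 symbol for each library, coloured by age and shaped by labelled sex, open where the library had fewer than 20 cells of the class, and a bar for all libraries summed. Rgs5 is highest in pericytes and in endothelium with pericyte markers, Rgs4 in pericytes and smooth muscle, Rgs16 in lymphatic endothelium, Rgs3 in blood endothelium and in endothelium with pericyte markers, and Rgs1 and Rgs2 in mast cells.

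Rgs5 was highest in pericytes, where 153 UMIs in 21 barcodes gave 4089 CPM (exact 95% Poisson interval 3467 to 4791). It had 4391 and 5874 CPM in the young male and young female pericytes, 6479 CPM in those of the library labelled middle-aged male and 2893 CPM in the only aged male pericyte. The lone pericyte barcodes of the library labelled middle-aged female and of the aged female library had 0 Rgs5 UMIs. The pericyte class is thus carried by 18 barcodes of 3 libraries, and no library reached the 20 cells asked of a class for a test.

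Endothelium with pericyte markers came next, at 2507 CPM over all libraries. Its 6 libraries had 2699, 2381, 2434, 1656, 1696 and 1679 CPM, with the ages from young to aged and the library labelled male before the one labelled female at each age, an order kept below wherever 6 values stand in 1 sentence. Both aged libraries and the female-labelled one of 12 months, with 3 to 6 such barcodes each, were the lowest. An Rgs5 UMI was seen in 94.5% of these barcodes, against 0.224% of the 11588 fibroblasts, a class that should lack the gene, at median depths of 3346 and 3563 UMIs.

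In smooth muscle Rgs5 was at 499, 499, 203, 311, 561 and 0 CPM, and at 383 CPM over all libraries. Only 17 of the 102 muscle barcodes had a UMI, and the 5 with the most held 65.2% of the class's Rgs5 UMIs, so the muscle level rested on few barcodes. Blood endothelium had 305, 304, 43.1, 76.4, 263 and 46.6 CPM and an Rgs5 UMI in 23.0% of its barcodes. The ranges of the muscle and blood endothelial libraries overlap, so their order is not set apart by the spread between libraries.

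Lymphatic endothelium had 1 Rgs5 UMI in 200 barcodes, which is 0.748 CPM with an upper limit of 4.17 CPM. The median of the free RNA (barcodes with 10 to 100 UMIs) was 35.1 CPM, with a range of 10.5 to 82.8 CPM over the libraries. Rgs5 in lymphatic endothelium was therefore below the level in free RNA, as it was in fibroblasts at 0.744 CPM and in macrophages at 1.09 CPM.

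Gated classes held only 16.5% of the 5578 Rgs5 UMIs in cells, because most Rgs5 lay in barcodes with markers of more than 1 class. Barcodes left out as mixed or tied that had at least 3 pericyte and at least 3 endothelial markers numbered 377, or 1.80% or less of a library outside the young male one, which had 3.16%, and they held 71.3% of all Rgs5 UMIs and 44.0% of all Rgs4 UMIs. Their Rgs5 level was 2048, 1929, 1500, 1803, 2128 and 926 CPM, so it was of one order in all 6 libraries. The doublet caller Scrublet marked 4.78% of these 377 barcodes and 30.5% of the left-out barcodes with fewer than 3 pericyte markers. Of the 377, the 144 that also had at least 3 smooth muscle markers had 2349 CPM of Rgs5 and 219 CPM of Rgs16, and the 233 without had 1580 CPM of Rgs5 and 75.9 CPM of Rgs16. Left-out barcodes with endothelial markers but no pericyte or muscle set had 37.5 CPM, and those with no vascular set had 0.488 CPM. Whether these barcodes were single cells or several cells in 1 droplet was not tested beyond the Scrublet shares.

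Within the blood endothelial class, Rgs5 was higher where more pericyte markers were seen in a barcode, a split made after the data had been seen. It was 151 CPM in the 784 barcodes with none, 439 CPM in the 130 with 1 and 997 CPM in the 32 with 2. Beyond the class, barcodes led by blood endothelial markers that had 3, 4 or at least 5 pericyte markers had 1076, 2007 and 1866 CPM. Without the young male library, which gave most of the barcodes, the 6 levels were 91.1, 317, 748, 1303, 1949 and 1584 CPM. The barcodes with no pericyte marker still had Rgs5 at 208, 182, 21.1, 62.5, 113 and 49.4 CPM by library, from 220, 42, 3, 21, 19 and 6 UMIs. Median depth also differed between these sets, at 1857 UMIs with no pericyte marker and 2617 with 1, and CPM is taken over summed UMIs. How much of the Rgs5 in blood endothelium came from pericyte RNA in the same droplet was not tested.

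**Figure D2:**
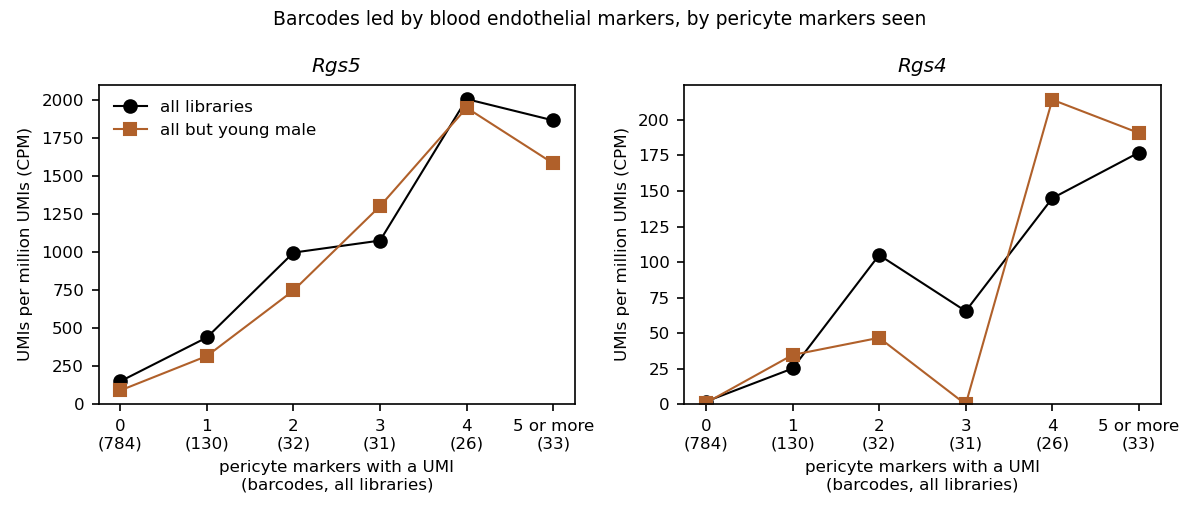
Rgs5 (left) and Rgs4 (right) level in CPM (y axis) in barcodes led by blood endothelial markers, by the number of pericyte markers with a UMI (x axis, with the number of barcodes), for all libraries (circles) and without the young male library (squares). Rgs5 is 151 CPM with 0 markers and 2007 CPM with 4 in all libraries, and Rgs4 is 1.94 CPM with 0 markers and 177 CPM with 5 or more.

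Rgs4 was high in pericytes and in smooth muscle. Pericytes had 588 CPM over all libraries from 22 UMIs, with 538, 1037, 393, 273, 0 and 0 CPM by library. Smooth muscle had 476 CPM (95% interval 401 to 561) over all libraries, and 218, 499, 297, 410, 1176 and 238 CPM by library, from 17, 7, 19, 33, 65 and 2 UMIs. The aged male muscle barcodes were the highest and the aged female ones, only 4, were among the lowest, so the 2 aged libraries span the others. The intervals of the 2 classes overlap, so their order is not set. A UMI was seen in 51 of the 102 muscle barcodes, and in 32.3% when each was thinned to 1000 UMIs.

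Outside the mural classes Rgs4 was lower. Endothelium with pericyte markers had 179 CPM, blood endothelium 9.65 CPM, lymphatic endothelium 1.50 CPM from 2 UMIs and fibroblasts 1.12 CPM. Free RNA had a median of 7.95 CPM, so blood endothelium was near that level and the lymphatic class below it. Mast cells, T and NK cells and dendritic cells had 0 Rgs4 UMIs, which allows up to 20.9, 1.75 and 7.41 CPM on a floor of 3 UMIs.

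An Rgs4 UMI was seen in 51 muscle barcodes and an Rgs5 UMI in 17, and 10 of those 17 also had Rgs4. The counts thus do not set the 2 genes apart within muscle. Of the 102, 41 had Rgs4 only, 7 had Rgs5 only, 10 had both and 44 had neither. Of the 21 pericytes, 1 had Rgs4 only, 8 had Rgs5 only and 9 had both, and of the 146 barcodes of endothelium with pericyte markers 0 had Rgs4 only, 86 had Rgs5 only and 52 had both. In muscle most barcodes with Rgs4 thus had no Rgs5 UMI, and in pericytes and endothelium with pericyte markers all but 1 had one. These counts are a description, because a muscle barcode of 2077 UMIs, the median, misses many transcripts that the cell holds. Split by 0, 1, 2 and at least 3 pericyte markers, the 14, 16, 29 and 43 muscle barcodes had 73.1, 201, 239 and 609 CPM of Rgs5, and 73.1, 770, 253 and 678 CPM of Rgs4. Rgs5 was thus higher at each step, and Rgs4 was not, being highest with 1 marker.

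**Figure D3:**
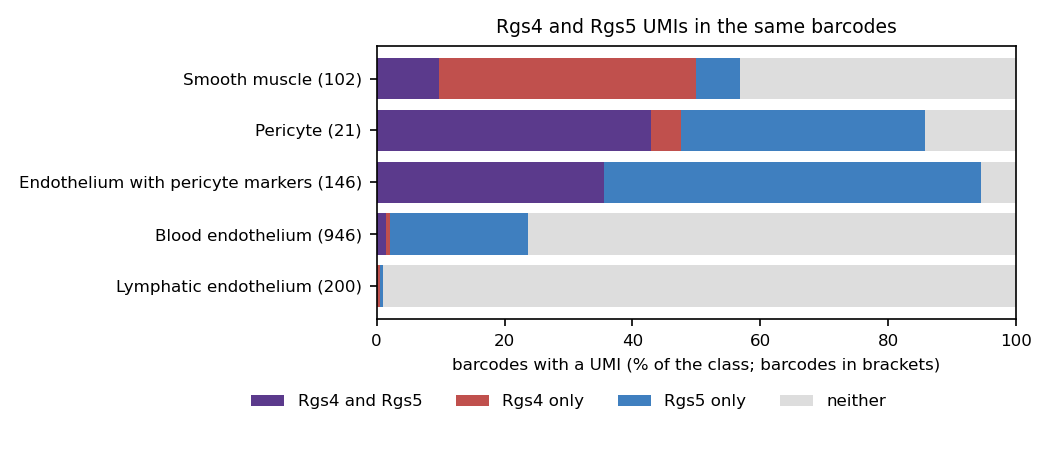
Rgs4 and Rgs5 in the mural and endothelial classes, as the share of each class's barcodes (x axis, %) with a UMI of both, of 1 only or of neither, and the number of barcodes in brackets. Smooth muscle has 41 barcodes with Rgs4 only, 7 with Rgs5 only and 10 with both. Endothelium with pericyte markers has 0 with Rgs4 only, 86 with Rgs5 only and 52 with both.

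Rgs16 was highest in lymphatic endothelium. The class had 511 CPM (95% interval 473 to 551) from 683 UMIs, and 384, 313, 160, 609, 466 and 835 CPM by library. These came from 25, 33, 9, 394, 208 and 14 UMIs, so the libraries labelled middle-aged female and aged male held most of the evidence. All 6 libraries were above their own free RNA, whose highest value was 72.2 CPM. A UMI was seen in 76.5% of the 200 barcodes at a median depth of 4908 UMIs, and in 34.5% after thinning to 1000 UMIs, against 0.734% and 0.342% of fibroblasts. The 21 pericytes had 347 CPM from 13 UMIs, 9 of them in the 4 barcodes of the library labelled middle-aged male, and endothelium with pericyte markers had 110 CPM. Smooth muscle had 23.3 CPM from 7 UMIs.

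In blood endothelium Rgs16 was at 55.7, 91.9, 129, 248, 217 and 54.4 CPM. Only 12.5% of the barcodes had a UMI, and the 5 with the most held 32.9% of the UMIs. Split after these values had been seen, the 15 barcodes with at least 3 lymphatic markers had 855 CPM from 134 of the class's 289 UMIs, and the 6 with 2 such markers had 488 CPM. The 90 with 1 marker had 62.1 CPM and the 835 with none had 59.4 CPM. Rgs5 went the other way, at 44.7 CPM in the 15 barcodes and 250 CPM in the 835. The 15 barcodes were also deep, with a median of 8211 UMIs against 1852 in those with no lymphatic marker. In barcodes with no lymphatic marker the libraries had 56.5, 80.7, 78.7, 55.6, 33.5 and 61.2 CPM, a narrower range in which the ages overlap.

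Among the 835 blood endothelial barcodes without lymphatic markers Rgs16 also differed by subtype marker, in a split by 8 such markers made after the data had been seen. It was 225 CPM in the 36 barcodes with Ackr1, a receptor gene of venules, and 48.5 CPM in those without. With Selp, which encodes the adhesion molecule P-selectin, it was 148 CPM, against 46.6 CPM without, and with Vwf 116 CPM, against 46.8 CPM without. The 225 barcodes with Plvap, which encodes the protein of endothelial diaphragms, had 99.9 CPM, against 35.2 CPM without. Barcodes with these 4 markers thus had the higher level, while Emcn, Ly6c1, Sox17 and Rbp7 split it less, at 65.4, 59.6, 57.0 and 49.0 CPM with the marker, against 46.5, 54.8, 63.8 and 73.5 CPM without. Only Plvap was split by library. Barcodes with a Plvap UMI had 98.6, 162, 91.8, 95.9, 40.8 and 67.2 CPM, and those without had 39.9, 8.47, 67.2, 7.20, 28.4 and 54.7 CPM. The level was higher with Plvap in 6 of 6 libraries, though the values rest on 1 to 34 UMIs each. Plvap is no marker of blood endothelium alone here, with 696 CPM in the lymphatic and 438 CPM in the blood endothelial class. Barcodes with Ackr1, Selp, Vwf or Plvap were also deeper, at medians of 2541 to 3598 UMIs, against 1654 to 1837 UMIs without, and no test is given.

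**Figure D4:**
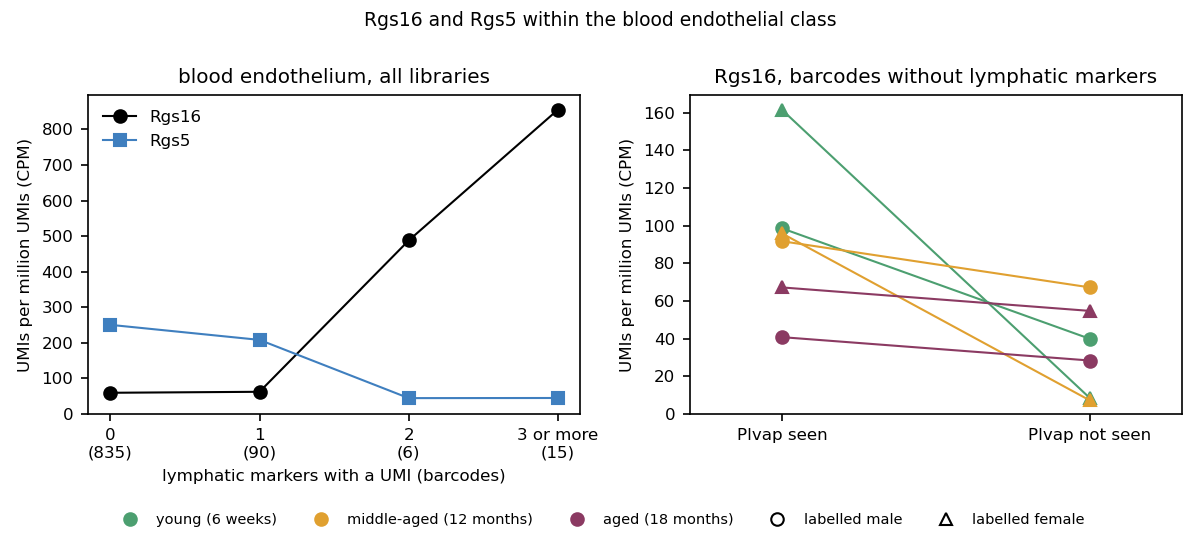
Left, Rgs16 and Rgs5 level (CPM) in the 946 blood endothelial barcodes by the number of lymphatic markers seen, with all libraries summed. Right, Rgs16 level in the barcodes without lymphatic markers, with Plvap seen and not seen, 1 line for each library. Rgs16 goes up from 59.4 CPM with no lymphatic marker to 855 CPM with at least 3, and all 6 lines on the right go down.

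Rgs3 was highest in endothelium with pericyte markers and in blood endothelium. Blood endothelium had 83.2, 38.9, 30.8, 31.8, 50.5 and 85.5 CPM, and endothelium with pericyte markers 71.8 CPM over all libraries. Lymphatic endothelium had 28.4 CPM, with 9.48 to 88.6 CPM in the 5 libraries that had a UMI. The ranges of the blood and lymphatic endothelial libraries overlap. Fibroblasts had only 8.40 CPM, yet as the largest class they held 32.5% of all Rgs3 UMIs, and smooth muscle had 2 Rgs3 UMIs in 102 barcodes. Rgs3 and Rgs16 were seen together in 26 lymphatic barcodes, and Rgs3 alone of the pair in 5. In blood endothelium 20 barcodes had both and 128 had Rgs3 only.

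Rgs2 and Rgs1 were highest in leukocytes among the gated classes. Mast cells were highest for both, at 1347 CPM of Rgs2 and 2372 CPM of Rgs1 over 96 barcodes, and 59 of the 96 had both. T and NK cells had 612, 346, 613, 879, 815 and 598 CPM of Rgs2, and 349, 230, 943, 406, 437 and 902 CPM of Rgs1. Macrophages had 304 CPM of Rgs2 and 150 CPM of Rgs1 over all libraries, and dendritic cells 365 and 336 CPM. Fibroblasts had only 22.9 CPM of Rgs2, yet as the largest class they held 10.4% of its UMIs, beside 9.64% in T and NK cells. The 53 barcodes with muscle and fibroblast markers, which were left out of the classes, had 318 CPM of Rgs2. The mast cell libraries with at least 20 cells, both young, had 1445 and 802 CPM of Rgs2, so the lower one lies within the range of the T and NK libraries. For Rgs1 they had 2399 and 1507 CPM, above every T and NK library.

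The vascular classes had less of both. Smooth muscle had 63.3 CPM of Rgs2, with 38.4, 0, 125, 24.8, 109 and 0 CPM by library, while free RNA had 26.0 to 108 CPM, so that muscle was not set apart from it. Lymphatic endothelium had 108, 94.8, 17.7, 10.8, 8.96 and 59.6 CPM of Rgs2, from 7, 10, 1, 7, 4 and 1 UMIs. Rgs1 had 0 UMIs of 300317 in smooth muscle, which allows up to 9.99 CPM on a floor of 3 UMIs, and 0.748 CPM in lymphatic and 1.54 CPM in blood endothelium. Those levels lie below the free RNA median of 38.5 CPM. The pericyte level of 107 CPM was 4 UMIs in 1 young female barcode.

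The genes most like each member over 44 class sums of 12 classes were found by Pearson's r of log2(CPM + 10) among 10092 genes, as a description, since the sums share libraries. Rgs4 went with Gucy1a1 (r = 0.95), a subunit of the nitric oxide receptor soluble guanylate cyclase, with Olfml2a (0.94) and with the muscle gate marker Des (0.92). Rgs5 went with the potassium channel gene Kcna5 (0.92), Ttll7 (0.91) and Tmem255b (0.91). Pericytes had no library of at least 20 cells and are not among the 12 classes, nor is endothelium with pericyte markers. Smooth muscle gave 2 sums. The genes most like Rgs5 here thus leave out the class where Rgs5 was highest. Rgs16 went with Klhl4 (0.87), the Notch ligand gene Dll1 (0.86) and the endothelial nitric oxide synthase gene Nos3 (0.86). Rgs1 and Rgs2 went with each other (0.88) and with Gpr65 (0.93 and 0.88), a proton-sensing receptor of leukocytes. Tnfaip3 (0.89) was also near Rgs1, and Laptm5 (0.88) near Rgs2. Rgs3 had no close partner, with Cds2 at 0.75, Prkch at 0.74 and Stim2 at 0.72.

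Few of the 17 other RGS genes listed were high in the vessel wall. Rgs7bp, which anchors some RGS proteins at the membrane, had 216 CPM in smooth muscle from 65 UMIs and 8.23 CPM in lymphatic endothelium. Rgs12 had 44.8 CPM in blood endothelium and Rgs6 40.0 CPM in smooth muscle. Rgs13 and Rgs18 were highest in mast cells, at 83.7 and 167 CPM, Rgs10 had 293 CPM in mast cells and 291 CPM in macrophages, and Rgs21 had 0 UMIs.

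Of 44 vascular receptors listed, 13 reached 50 CPM in a vascular class, with the highest level in smooth muscle for 3, in pericytes for 2, in lymphatic endothelium for 4 and in blood endothelium for 4. The receptors named here were picked after their levels had been seen. The sphingosine receptor S1pr3 had 663 CPM in smooth muscle, 401 CPM in pericytes, 0 in lymphatic and 3.09 CPM in blood endothelium, and the endothelin receptor Ednra 153, 321, 0 and 1.54 CPM. Its relative S1pr1 had 3.33, 80.2, 693 and 825 CPM, and the adrenomedullin receptor subunit Calcrl 53.3, 26.7, 343 and 127 CPM, in the same order of classes. S1pr3 and Ednra were thus higher in the mural classes and S1pr1 and Calcrl in the endothelial ones. The endothelin receptor Ednrb was not split that way, at 56.6, 214, 182 and 231 CPM. The apelin receptor Aplnr had 133 CPM in blood endothelium and 0 UMIs in smooth muscle, pericytes and lymphatic endothelium. Of the alpha subunits, Gnaq at 96.6, 187, 114 and 117 CPM and Gnai2 at 499, 535, 776 and 1009 CPM differed less. Others differed more, with Gna11 at 96.6, 107, 31.4 and 136 CPM and Gnao1 at 33.3, 0, 0.748 and 4.25 CPM.

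Ages were compared with edgeR's quasi-likelihood test on UMIs summed by library and class, with Benjamini-Hochberg adjustment over all genes tested. Blood endothelium, fibroblasts and macrophages had at least 20 cells in all 6 libraries and were fitted. T and NK cells also had at least 20 cells in all 6, but were not among the classes chosen for the fits. In blood endothelium 0 of 4 members tested passed an adjusted p of 0.05 in any of the 3 age comparisons, and 0% of the 4224 genes tested did. At an unadjusted p under 0.05 there were 337 genes in aged against young, 385 in middle-aged against young and 212 in aged against middle-aged libraries. DESeq2 called 7, 1 and 0 genes in the same comparisons and 0 members. In fibroblasts and macrophages 0% of 12015 and 0% of 9735 genes passed, and no member did so with either tool. At an unadjusted p under 0.05 there were 439 to 1033 fibroblast genes and 348 to 1148 macrophage genes in a comparison, and DESeq2 called 7 to 65 and 9 to 107 genes.

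Rgs5 had the widest age difference among the members in blood endothelium. It was at 43.1 and 76.4 CPM in the middle-aged libraries, against 305 and 304 CPM in the young ones, a log2 fold change of -2.29 ± 0.58 (SE, edgeR adjusted p = 0.448, n = 2 each). The aged libraries had 263 and 46.6 CPM, against the same young values (-0.95 ± 0.55, edgeR adjusted p = 0.703, n = 2 each). Every middle-aged and aged library was below both young ones, but the aged pair differed more within itself than the aged male library differed from the young. The share of all tested genes without overlap between the ages was not counted, so this order is not read as a result about Rgs5. Pericyte markers summed to 107 and 70.7 CPM in the young libraries. They summed to 67.7 and 65.8 CPM in the middle-aged and 75.8 and 23.3 CPM in the aged ones. Barcodes with a pericyte marker made up 18.9% and 14.8% of the class in the young libraries. The shares were 8.89% and 25% in the middle-aged and 13.7% and 7.5% in the aged ones. The highest share was in the library labelled middle-aged female, where Rgs5 was at 76.4 CPM. That library was also the deepest, with a median of 7508 UMIs a cell, against 2536 to 4188 in the others. Deeper barcodes can show more markers, and the part of depth in these shares was not tested. Among single markers, Kcnj8 was at 0 in all 4 older libraries. Higd1b was at 18.6 and 7.07 CPM in the young and 6.15, 0, 5.05 and 0 CPM in the older ones. Of the 10 pericyte markers, 3 to 9 were at 0 in each older library, against 0 and 1 in the young ones. The class held 1229130 and 258303 UMIs of tested genes in the young libraries and 116476 to 433452 in the older ones. The library labelled middle-aged female, with 433452 UMIs, had 4 markers at 0, against 1 in the young female library with 258303 UMIs. The part of depth in these zeros was not tested. In barcodes with no pericyte marker the middle-aged against young fold change was -2.07 ± 0.49 (edgeR adjusted p = 0.363). The part of pericyte RNA in the difference was not tested otherwise. The call depended on the aged libraries in the fit: without the aged male or without the aged female library Rgs5 passed in middle-aged against young, at -2.26 and -2.27 (edgeR adjusted p = 0.000758 and 0.00156), where 1.19% and 1.2% of genes were called. Without the aged male library the same fit called Rgs5 in aged against young blood endothelium, at -2.83 (edgeR adjusted p = 0.0152, where 0.397% of genes were called), with the lone aged female library assumed to vary like the others.

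Rgs16 was higher in the middle-aged blood endothelium, at 129 and 248 CPM, against 55.7 and 91.9 CPM in the young, a log2 fold change of 1.46 ± 0.52 that did not pass (edgeR adjusted p = 0.467). The aged libraries were at 217 and 54.4 CPM and overlapped the young ones (0.99 ± 0.56, edgeR adjusted p = 0.693). Without the aged male or without the aged female library the middle-aged against young difference passed, at 1.49 in both fits (edgeR adjusted p = 0.0392 and 0.0425). Rgs16 in this class was at 59.4 CPM with no lymphatic marker, 62.1 CPM with 1, 488 CPM with 2 and 855 CPM with at least 3. Barcodes with at least 1 such marker, most of them with only 1, made up 9.01% and 14.8% of the class in the young libraries. The shares were 10.0% and 26.3% in the middle-aged and 17.8% and 5.00% in the aged ones. They do not single out the barcodes with 2 or more markers, where Rgs16 was high. Prox1 was seen in 0.721% and 1.85% of the class in the young, 2.22% and 11.3% in the middle-aged and 8.22% and 0% in the aged libraries. Depth differed too, with a median of 7508 UMIs a cell in the library labelled middle-aged female, against 2536 to 4188 in the others. The part of depth in these shares was not tested. Without the barcodes with any lymphatic marker the fold changes were -0.072 ± 0.40 in middle-aged against young and -0.52 ± 0.49 in aged against young libraries (edgeR adjusted p = 0.961 and 0.797). Both were below 0, where the fits of the whole class were above 0.

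Rgs2 was at 89.8 and 95.5 CPM in young, 30.8 and 50.9 CPM in middle-aged and 40.4 and 38.8 CPM in aged blood endothelium. Neither older pair overlapped the young pair, but the fold changes of -1.10 ± 0.37 in middle-aged and -1.28 ± 0.42 in aged against young libraries did not pass (edgeR adjusted p = 0.448 and 0.438). The share of all tested genes without overlap was not counted, so this gap is not read as a result about Rgs2. Free RNA had 88.5 and 108 CPM of Rgs2 in young, 69.4 and 26.0 CPM in middle-aged and 60.7 and 61.0 CPM in aged libraries. Its Rgs2 level was thus also lower in every older library than in both young ones. The part of free RNA in the Rgs2 difference was not tested. Immediate early genes, which cell dissociation induces, summed to 27924 and 26178 CPM in the young, 23221 and 24860 CPM in the middle-aged and 21844 and 15259 CPM in the aged libraries, and their part in the Rgs2 difference was not tested. Rgs3 was at 30.8 and 31.8 CPM in the middle-aged, against 83.2 and 38.9 CPM in the young (-1.14 ± 0.48, edgeR adjusted p = 0.516). In the aged libraries Rgs3 was at 50.5 and 85.5 CPM and overlapped the young ones (-0.12 ± 0.47, edgeR adjusted p = 0.969). In macrophages the Rgs1 and Rgs2 fold changes in aged against young libraries were -0.13 ± 0.35 and 0.08 ± 0.29 (edgeR adjusted p = 1 for both).

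**Figure D5:**
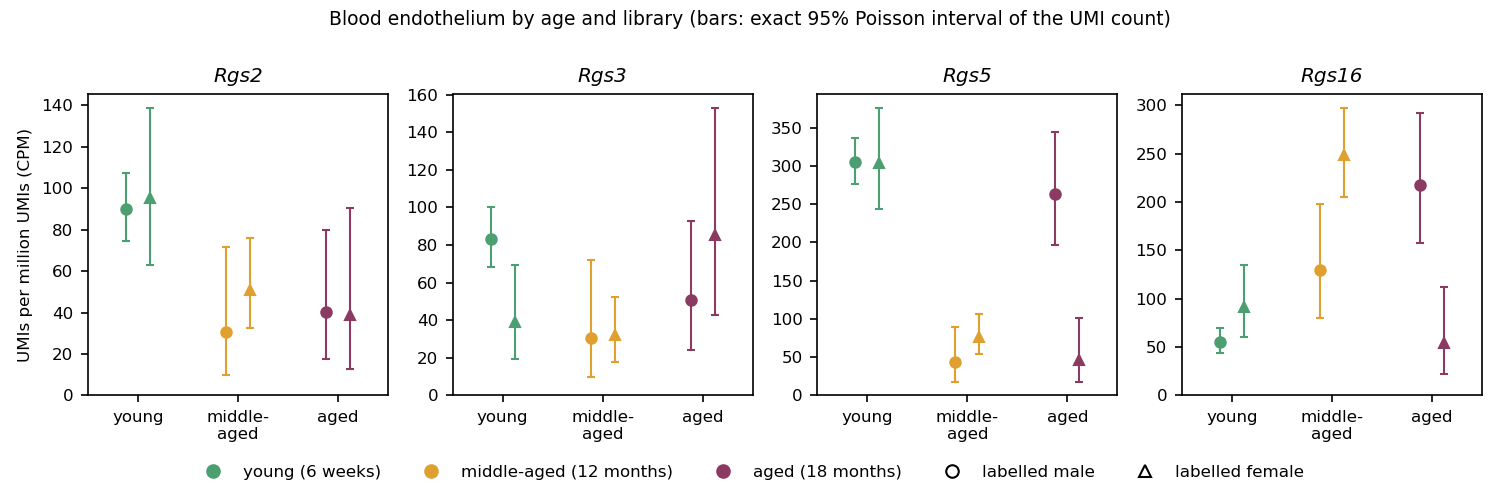
Level of 4 members in blood endothelium (y axis, CPM) by age (x axis), with 1 symbol for each library and bars for the exact 95% Poisson interval of its count. Rgs5 and Rgs2 are lower in all 4 older libraries than in both young ones, and Rgs16 is highest in the library labelled middle-aged female and in the aged male library. The share of all tested genes without such overlap was not counted.

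In blood endothelium 0 genes of each list passed in any age comparison, of 7 alpha subunits, 6 beta and gamma subunits, 8 receptors, 10 effectors, 1 other RGS gene and 26 early genes tested. Their median log2 fold changes in aged against young libraries were -0.24, -0.20, -0.37, 0.14, 0.43 and -0.51, beside a median near 0.00 over all genes tested.

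Smooth muscle and lymphatic endothelium could be compared between ages only with a minimum of 10 cells a library. For muscle that left both middle-aged libraries and the male library of each other age, with 1 residual degree of freedom, and 1 of 2 members tested passed in aged against young, where 1.39% of 1799 genes did, and 0 members passed in middle-aged against young (4.5% of genes) or aged against middle-aged (0.167%). Rgs4 was at 1176 CPM in the aged male library, against 218 CPM in the young male one (2.33 ± 0.64, edgeR adjusted p = 0.026, 1 library each). The spread in this fit comes from the middle-aged pair alone, and the lone young and aged libraries are assumed to vary like it, so the p-value says little about the ages. With mixed barcodes kept Rgs4 did not pass (edgeR adjusted p = 0.0636 at 20 cells and 0.119 at 10 cells). The female libraries not fitted, with 4 aged and 5 young muscle barcodes, had 238 CPM in the aged and 499 CPM in the young, the opposite order. Early genes were at 24229 CPM in the aged male muscle and 14151 CPM in the young male muscle, and 1 of 24 early genes tested, Egr1, passed in the same fit (1.80, edgeR adjusted p = 0.0125). Early genes were higher still in the middle-aged muscle, at 28877 and 25282 CPM, where Egr1 also passed (2.18, edgeR adjusted p = 4.6e-05) and Rgs4 did not. Rgs5 did not pass (0.07 ± 0.66, edgeR adjusted p = 0.967). The middle-aged libraries had 297 and 410 CPM of Rgs4, against the 218 CPM of the young male one (0.64 ± 0.58, edgeR adjusted p = 0.589).

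For lymphatic endothelium the aged female library was left out at 10 cells, and 6.66% of 2584 genes passed in aged against young and 1.24% in middle-aged against young, with 0.967% in aged against middle-aged libraries. Of the 2 members tested, Rgs16 and Rgs2, 0 passed with edgeR, and at an unadjusted p under 0.05 there were 530 and 239 genes but no member. Rgs16 was at 466 CPM in the aged male library, against 384 and 313 CPM in the young libraries (0.46 ± 0.44, edgeR adjusted p = 0.562). Rgs2 was at 8.96 CPM in the aged male library, against 108 and 94.8 CPM in the young (-3.40 ± 1.85, edgeR adjusted p = 0.28), and at 17.7 and 10.8 CPM in the middle-aged (-3.01 ± 1.56, edgeR adjusted p = 0.545). The older libraries of 16, 70 and 75 cells were all below both young ones, while the 4 aged female barcodes had 59.6 CPM from 1 UMI. How many other genes had no overlap was not counted. Rgs2 in free RNA was also lower in the older libraries, at 26.0 to 69.4 CPM, against 88.5 and 108 CPM in the young. The part of free RNA was not tested. The aged arm is the aged male library alone. Of 25 early genes tested, 4 passed as higher and 5 as lower in it, with a median log2 fold change of -0.56, and their sum was 21934 CPM, against 27121 and 27507 CPM in the young libraries.

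Whether an age difference in a class went beyond that of fibroblasts from the same libraries was tested with class and age in 1 edgeR fit and library as a block. Aged against young beyond fibroblasts, 0.0385% of 12990 genes passed in lymphatic endothelium, 0.123% in blood endothelium and 0.0924% in macrophages, and 0 members did so in any of them. The nearest was Rgs16 in macrophages (4.24 ± 0.88, edgeR adjusted p = 0.0507), with 13 and 3 UMIs in the aged and 1 and 3 UMIs in the young libraries. For lymphatic endothelium at 20 cells the young arm was the female library alone and the aged arm the male library alone. Age and labelled sex cannot be told apart there, and the spread came from other classes. Its share of genes thus says little about the ages. Smooth muscle at 10 cells, given below, likewise had the male library alone in both arms. In blood endothelium Rgs16 was at 2.47 ± 0.61 beyond fibroblasts (edgeR adjusted p = 0.165), and at 0.89 ± 0.76 without the barcodes with lymphatic markers (edgeR adjusted p = 1). These results depended on the setting. Rgs16 passed in macrophages with Scrublet doublets left out (0.139% of genes called), with at least 1000 genes a barcode (0.139%), without the young female library (0.284%) and without the aged female one (0.172%), and in blood endothelium without the young female library (3.02, edgeR adjusted p = 0.0124, 0.315% of genes called). With no filter on low counts Rgs16 passed in blood endothelium (2.59) and macrophages (4.22), and Rgs5 in macrophages (4.78), where 0.435% and 0.526% of genes were called in the 2 classes. Where no member passed, the share of genes called was 0.343% in lymphatic endothelium with no filter, 0.0539% in lymphatic and 0.123% in blood endothelium without Scrublet doublets, and 0.1% in blood endothelium at 1000 genes. In summed libraries fewer cells with a transcript and less of it in each cell cannot be told apart. With at least 10 cells a sum the share of genes called beyond fibroblasts was 0.0173% in smooth muscle, 0.156% in lymphatic endothelium, 0.113% in blood endothelium and 0.121% in macrophages, and 0 members were called.

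With mixed barcodes kept in the classes, smooth muscle could be fitted in both middle-aged libraries and the male library of each other age, so that the middle-aged pair again gave all of the spread. Rgs16 passed there, at -4.31 ± 1.13 in aged against young (edgeR adjusted p = 0.0285) and -2.53 ± 0.69 in middle-aged against young (edgeR adjusted p = 0.0258), where 0.781% and 1.19% of genes were called, with 0.0679% in aged against middle-aged. Both calls were lost when the minimum was also set to 10 cells (edgeR adjusted p = 0.189 and 0.207). With mixed barcodes kept and 20 cells, 0.0162% of blood endothelial and 0.0299% of macrophage genes were called in middle-aged against young, and 0.0254% of lymphatic endothelial genes beyond fibroblasts, and no member was among them. With no filter on low counts 0.0756% of blood endothelial genes were called in aged against middle-aged libraries, and 0 members.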

How the data were processed

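The authors deposited 10x Genomics single-cell matrices of UMI counts for 6 libraries of dissected collecting lymphatic vessels, made with Cell Ranger 3.0.2 on mm10 per the submitters' processing notes, with no normalization. All 6794880 listed barcodes of each library were deposited, 9616652 to 28921825 UMIs a library. The labels name the v2 kit, while a list of that length belongs to a later kit. All other steps were run on these deposited counts. Cells were barcodes of 500 genes or more with no more than 10% of UMIs mitochondrial, and each was put in the class with most markers detected, at least 3, from 15 lists of 129 markers. Barcodes with at least 3 markers of an unrelated class (1852), ties (170), those with too few markers (1585) and muscle barcodes with a basal keratin UMI (57) were left out of the classes. The members, marker lists and pathway lists were chosen with earlier results of these data known, and the keratin rule, the group of endothelium with pericyte markers and the splits by single markers after seeing the data. Named genes are the members, sex genes, the 3 genes most like each member and up to 2 of smallest p of each list among calls; other genes of the pathway lists and cell markers are named for their levels, chosen after these were seen. Gene coordinates are from GENCODE M21, where 30934 of 31053 gene IDs matched, and promoters from RefSeq, which had windows for 5 of the 6 members.

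Levels are a class's UMIs of a gene for each 1000000 UMIs (CPM) of that class in a library, with exact 95% Poisson intervals. Age comparisons used edgeR 4.0.16 (quasi-likelihood F test, TMM, filterByExpr, R 4.3.3) on sums of at least 20 cells, 2 libraries an age, and an adjusted p of 0.05. The same fit was also run on counts simulated from the blood endothelial sums. The SE after ± of an edgeR log2 fold change is approximate: the size of the fold change divided by the square root of its F statistic. DESeq2 1.42.0, RLE factors, no filter on low counts, labelled sex as a covariate, other gates and cell minimums, Scrublet (scanpy 1.11.5) and leaving out each library were alternatives. UMIs are molecules of 3′ ends, so depth limits low genes: in 102 muscle barcodes 1 UMI is 3.33 CPM. Sex genes contradict the labels of the middle-aged pair, so labelled sex was kept out of the model. Scripts ran in Python 3.11.15 with scipy 1.17.1 for intervals.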

Additional observations from a re-analysis of the deposited data

Results flagged for a closer look

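Rgs16 moved in opposite directions with age in fibroblasts and macrophages. In fibroblasts the aged libraries averaged 1.51 CPM, at 1.38 and 1.64, against 2.71 and 4.85 CPM in the young libraries, and both aged ones were lower. In macrophages the aged libraries had 1.42 and 5.94 CPM, against 0.281 and 0.963 CPM in the young ones, and both aged ones were higher. The share of all tested genes without overlap in either class was not counted. The difference between the classes was tested by the term beyond fibroblasts, which gave 4.24 ± 0.88 on the log2 scale and did not pass (edgeR adjusted p = 0.0507). All these levels are low: they rest on 13 and 3 UMIs in the aged and 1 and 3 UMIs in the young macrophages. They also lie below the level of Rgs16 in free RNA, which had a median of 15.7 CPM over the libraries, and the part of free RNA in the difference was not tested.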

How the results depend on the processing

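No member passed an age comparison in the classes fitted, and the count of members called stayed at 0 in 69 of 81 counts over the alternatives. In aged against young libraries it was 1 with mixed barcodes kept (Rgs16 in muscle, -4.31, edgeR adjusted p = 0.0285, where 0.781% of genes were called) and 1 at 10 cells (Rgs4 in muscle). Leaving out 1 library at a time gave 0 to 1, with Rgs5 in blood endothelium called without the aged male library. In middle-aged against young libraries it was 1 with no filter on low counts (Rgs5 in blood endothelium, where 0.523% of genes were called), 1 with mixed barcodes kept (Rgs16 in muscle, -2.53), and 0 to 2 leaving out 1 library, with Rgs5 and Rgs16 in blood endothelium called without either aged library. In aged against middle-aged libraries it was 0 throughout. Beyond fibroblasts it was 3 with no filter, 1 without Scrublet doublets, 1 at 1000 genes a barcode, and 0 to 2 leaving out 1 library, with 0.00902% to 0.526% of genes called in a class in those settings. The mixed and 10-cell muscle fits have 1 residual degree of freedom, and both aged against young calls were lost with the 2 settings together (Rgs16 adjusted p = 0.189, Rgs4 adjusted p = 0.119, edgeR), which was added after seeing the data, as were the keratin, pericyte-marker and lymphatic-marker alternatives.

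The Rgs16 fold changes in blood endothelium turned to -0.072 in middle-aged and -0.52 in aged against young libraries without barcodes with lymphatic markers. The aged one lay between -0.47 (without the aged male library) and 1.62 (without the aged female library) when 1 library was left out. Over 21 alternatives the Rgs5 fold change lay between -2.93 and -1.27 in middle-aged and between -2.83 and -0.25 in aged against young, and the Rgs2 one between -1.70 and -0.58 and between -1.70 and -1.16. Rgs4 in muscle averaged 257 ± 55.9 CPM over the 2 libraries of at least 20 cells (SD), 443 CPM with mixed barcodes kept, 180 CPM with keratin barcodes kept, 525 CPM at 10 cells and 476 CPM over the sum of all libraries. Rgs5 in muscle averaged 351 CPM and was 117 CPM with a gate of 4 markers. The cause of these shifts was not tested. The labels give no replicate numbers. Labelled sex as a term in the fit called 0 members and 0 genes. With the middle-aged pair exchanged, as its sex genes read, it called 0 members, and 29, 31 and 0 fibroblast, 1, 29 and 1 macrophage and 1, 0 and 0 blood endothelial genes, in aged against young, middle-aged against young and aged against middle-aged libraries, against 0 without the term. Depth limits the pericyte class, with 37413 UMIs in all.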

Other observations

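Among barcodes with muscle markers, a set of 53 also carried fibroblast markers and was kept out of the smooth muscle class. It had 309 CPM of Rgs4, 272 CPM of Rgs5, 171 CPM of Rgs16 and 318 CPM of Rgs2, against 476, 383, 23.3 and 63.3 CPM in the 102 smooth muscle barcodes. Myh11 was at 4841 CPM in that set and 3653 CPM in the class. A further 57 barcodes with muscle markers and a basal keratin UMI, mostly (46) in 1 middle-aged library, had 26.9 CPM of Rgs4, 35.9 CPM of Rgs5 and 0 UMIs of Rgs16, with Cnn1 at 817 CPM against 193 CPM in smooth muscle. No explanation of these sets was tested.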
